A study of Homo sapiens with 4 samples.

Results

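Retinoic acid (RA) was given early to differentiating hESCs, and cells were later sorted by a reporter of the heart lineage. For each gene, the change with RA in NKX2.5:GFP-positive cells was set against the change in NKX2.5:GFP-negative cells of the same experiment. The RA change of a fraction is the difference in log2(CPM + 1) between RA-treated and control (CTR) cells, where CPM is the usual depth-scaled unit of read counts, and the fraction difference is the RA change in GFP-positive cells minus that in GFP-negative cells. A fraction difference of 2 is a 4-fold difference between the RA changes, and a positive value means that the RA change was higher in GFP-positive cells. Of 60234 genes counted, 12332 had at least 10 CPM in 1 or more of the 4 libraries and at least 20 reads in either CTR library, and these were compared. The fraction difference was 2 or more in 150 of them (1.22%) and -2 or less in 105 (0.851%).

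The cells came from 1 established hESC line, NKX2.5:GFP, whose GFP reports NKX2-5, a transcription factor of the early heart. The cells were differentiated as spun embryoid bodies, beat from day 10 and, by the deposited description, were sorted for GFP at day 31. RA-treated cultures received 1 µM RA from day 4 to day 7 and CTR cultures received DMSO, the solvent, over the same days. One library was made from each of 4 conditions, RA-treated GFP-positive, CTR GFP-positive, RA-treated GFP-negative and CTR GFP-negative. All 4 conditions share the line and the cardiac cytokine cocktail, and GFP-negative cells are whatever did not express the reporter, not a defined cell type. RA-treated and CTR cells grew as separate cultures, so a difference between cultures is part of every RA change.

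RA is made from vitamin A by retinaldehyde dehydrogenases, is carried in the cell by small binding proteins, and acts through RA receptors that sit on DNA and switch genes on when RA binds. In the embryo it is made at the venous end of the heart tube, where it favours atrial and sinus venosus identity over ventricular identity. It also patterns the hindbrain, the eye and the gut, tissues that lie outside the heart and would carry no NKX2-5 reporter in most of their cells.

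With 1 library per condition there is no replicate, and no test between conditions was made. Ratios carry 95% intervals that cover counting error only, since amplified reads are not independent molecules. The libraries held 28125727, 28643091, 26222787 and 4371101 reads, in the order in which the conditions are named above. The CTR GFP-negative library was thus the shallowest, the others being 6.0 to 6.55 times as deep, and 3 reads, the most that a count of 0 is taken to hide, stood for 0.639 CPM there and for 0.105 to 0.117 CPM in the others. NKX2-5 itself had 463 CPM in RA-treated and 593 in CTR GFP-positive cells against 9.74 and 14.5 CPM in the GFP-negative cells, as the sort labels state. In bulk samples a lower level can mean fewer cells of a type or less RNA per cell, which cannot be told apart here.

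Most genes did not differ by fraction. Across the 12332 genes the median fraction difference was -0.02, with 5% of genes below -0.97 and 5% above 1.12. Neither fraction differed by 2-fold or more in 10774 genes. Among the rest, 176 genes were 2-fold or more higher with RA in both fractions and 38 lower in both, while 415 were higher and 153 lower in GFP-positive cells alone, and 381 were higher and 358 lower in GFP-negative cells alone. The shares of all genes past 2-fold were 4.96% higher and 1.68% lower in GFP-positive cells, and 4.65% higher and 3.38% lower in GFP-negative cells. Both RA changes correlated across genes with Pearson's r of 0.28 and Spearman's rho of 0.23, a description over genes that share the 4 libraries and are not independent.

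**Figure D1:**
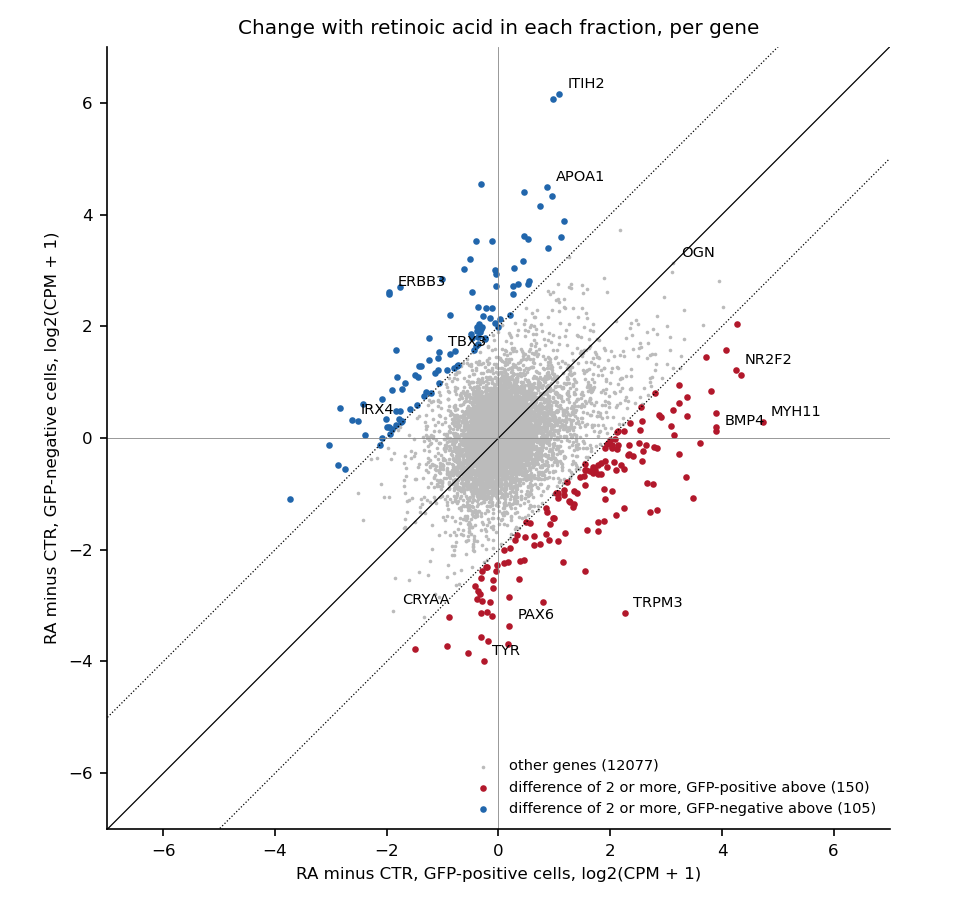
RA change in GFP-positive cells (horizontal axis) against the RA change in GFP-negative cells (vertical axis), both as differences of log2(CPM + 1), with 1 point per gene for 12332 genes. The solid line marks equal changes and the dotted lines a fraction difference of 2. The 150 red genes had the higher RA change in GFP-positive cells, the 105 blue genes in GFP-negative cells, and 12077 genes lay between the lines.

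The same fraction difference arose in different ways. Of the 150 genes at 2 or more, 74 were 2-fold higher with RA in GFP-positive cells only, 49 were 2-fold lower in GFP-negative cells only, 21 did both, 5 were higher in both fractions and 1 was lower in both. Of the 105 genes at -2 or less, 54 were higher in GFP-negative cells only, 31 were lower in GFP-positive cells only, 16 did both, 3 were higher in both fractions and 1 was lower in both. The order of the fractions was exchanged for many of these genes. In 53 of the 150 the GFP-negative level was the higher in CTR cells and the lower with RA, and in 57 of the 105 the GFP-positive level was the higher in CTR cells and the lower with RA. The sign of the fraction difference allows an exchange in this direction only, and the share of exchanges over all genes compared was not counted. The highest of the 4 levels lay in CTR GFP-negative cells for 89 of the 150 genes and in RA-treated GFP-positive cells for 48. For the 105 genes it lay in RA-treated GFP-negative cells for 55 and in CTR GFP-positive cells for 48. Over all genes compared it lay in RA-treated and CTR GFP-positive cells for 22.3% and 28.3%. It lay in RA-treated and CTR GFP-negative cells for 29.1% and 20.3%. The sign of the fraction difference itself favours the libraries named for each group, so these counts are no separate result.

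Depth bears on one side more than on the other. Under 20 reads in the CTR GFP-negative library were found in 10 of the 150 genes and in 58 of the 105, of which 14 had none. Over both groups this was 26.7% of genes, against 3.04% of all genes compared. No library fell under 20 reads for 111 of the 150 and in 47 of the 105. The counting interval of the ratio of the RA ratios lay off 1 in 141 of the 150 and in 91 of the 105, and no ratio could be formed for 2 of the 150 and 14 of the 105. The same counts picked these genes, so intervals off 1 were nearly fixed beforehand and are no support for the calls. The share over all genes compared was not counted. Protein-coding genes made up 92.5% of both groups and 93.7% of all genes compared.

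At the upper threshold, TMSB4X, ATP8A2 and FABP5 lay just inside with 2.0, 2.0 and 2.01 after rounding, and MGAT4A, NALF1 and FAT3 just outside with 2.0, 1.99 and 1.99. At the lower threshold, FOXL1, MUC1 and GPR160 lay just inside with -2.0, -2.0 and -2.01, and ZNF486, LINC02082 and ZNF180 just outside with -2.0, -2.0 and -1.99.

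Of the contractile genes, a few had a far higher RA change in GFP-positive cells, with the highest value for MYH11, the smooth muscle myosin heavy chain (chromosome 16 of GRCh37, 15796992 to 15950885). MYH11 had 115 CPM in RA-treated and 3.35 CPM in CTR GFP-positive cells, and 28.4 and 23.2 CPM in RA-treated and CTR GFP-negative cells. The RA-treated GFP-positive library was high and the CTR GFP-positive library low, with both GFP-negative libraries between them. The ratio of RA to CTR was 34.3 in GFP-positive cells (28.0 to 42.4) and 1.22 in GFP-negative cells (0.998 to 1.51), a fraction difference of 4.46. MYLK, the kinase that starts smooth muscle contraction by phosphorylating myosin (chromosome 3, 123328896 to 123603179), had 271 and 18.4 CPM in GFP-positive cells and 125 and 68.8 CPM in GFP-negative cells, RA first. It was higher with RA in both fractions, by 14.7-fold (13.5 to 16.1) and 1.82-fold (1.62 to 2.04). ACTA1, the skeletal muscle actin that the fetal heart also uses, had 235 and 21.7 CPM in GFP-positive cells and 15.7 and 11.7 CPM in GFP-negative cells. Its RA ratio was 10.8 (9.98 to 11.8) in the former and 1.34 (1.01 to 1.81) in the latter.

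The smooth muscle list as a whole differed little between the fractions. Of 13 genes listed for smooth muscle, all passed the filter, 6 were 2-fold higher with RA in the GFP-positive fraction and 2 in the GFP-negative, and the median fraction difference was 0.42 against -0.02 over all genes. MYH11 was the only member past 2, and SYNPO2, an actin-bundling protein, followed with 1.34. ACTA2, the smooth muscle actin, had 0.81, TAGLN, an actin-binding protein of smooth muscle, 0.12, and CNN1, the calponin of smooth muscle, 0.04, while MYOCD, a coactivator of muscle genes, had -0.03, SMTN, smoothelin, -0.40, and LMOD1, an actin nucleator, -0.42. MYLK and ACTA1 are not in this list. ACTG2, the enteric smooth muscle actin, was higher in both fractions, with 10.3 and 0.454 CPM in GFP-positive cells and 51.0 and 8.09 CPM in GFP-negative cells, and its fraction difference was 0.44. Actin genes share long near-identical stretches, so reads that match several of them were left out before counting and their levels are uncertain. The summed level of 4 smooth muscle markers (ACTA2, TAGLN, MYH11 and CNN1) was 1057 CPM in RA-treated and 476 CPM in CTR GFP-positive cells, and 1387 and 731 CPM in the GFP-negative cells, with none at 0, and its part in the result was not tested.

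Promoters of 3 of these genes are shown because each holds a CArG box, the short AT-rich element through which serum response factor drives muscle actin and myosin genes. The sequences are the 250 bases before the RefSeq start on GRCh38.p14, 5′ to 3′ on the gene's strand, with the CArG boxes in capitals. ACTA1 lies at chr1:229434095-229434344 on the minus strand, MYLK at chr3:123620549-123620798 on the minus strand and ACTG2 at chr2:73892758-73893007 on the plus strand.
ACTA1: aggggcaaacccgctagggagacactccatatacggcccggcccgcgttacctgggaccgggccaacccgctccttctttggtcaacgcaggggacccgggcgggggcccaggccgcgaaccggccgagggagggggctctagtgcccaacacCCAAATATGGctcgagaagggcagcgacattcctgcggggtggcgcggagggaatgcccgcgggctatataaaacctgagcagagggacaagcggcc
MYLK: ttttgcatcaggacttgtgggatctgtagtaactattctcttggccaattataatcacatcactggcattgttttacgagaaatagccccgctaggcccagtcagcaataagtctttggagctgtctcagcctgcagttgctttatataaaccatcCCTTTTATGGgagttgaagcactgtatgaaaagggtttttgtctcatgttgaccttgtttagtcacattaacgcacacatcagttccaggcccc
ACTG2: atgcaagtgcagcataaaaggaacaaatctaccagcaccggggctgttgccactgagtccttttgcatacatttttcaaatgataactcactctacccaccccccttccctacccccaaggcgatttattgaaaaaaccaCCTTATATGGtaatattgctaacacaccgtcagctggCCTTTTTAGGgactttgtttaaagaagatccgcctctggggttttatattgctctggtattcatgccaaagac
The box begins 97 bases before the start in ACTA1 and 94 bases before it in MYLK, and ACTG2 holds one at 110 and one at 73 bases. Searched on both strands, a CArG box was present in 1.14% of 27305 RefSeq promoters of this length and in 1.19% of the 9628 that belong to genes compared here. It was present in 5 of the 106 promoters matched to genes with a fraction difference of 2 or more, those of ACTA1, MYLK, HES5, SPARCL1 and RHOJ, and in 0 of the 76 matched at -2 or less. In the smooth muscle list it was present in 1 of 9 matched promoters, that of ACTG2, whose fraction difference is under 2, and the promoters printed were chosen because they hold it. A match of letters is not shown to be a site in use.

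The transcription factor genes NR2F2, SHOX2 and ISL1 had the higher RA change in GFP-positive cells, whereas other factors of the venous pole and conduction system did not, with fraction differences of 0.06 for TBX5, -0.27 for TBX18, -1.48 for TBX2 and -2.60 for TBX3. NR2F2 encodes COUP-TFII, a nuclear receptor of atria and veins, and had 534 and 27.0 CPM in GFP-positive cells and 214 and 91.4 CPM in GFP-negative cells, RA first. In CTR cells the GFP-negative fraction had the higher level, and with RA the GFP-positive fraction did. SHOX2, which keeps the sinus node from becoming working muscle, had 147 and 6.25 CPM in GFP-positive cells and 22.5 and 9.80 CPM in GFP-negative cells, and its order was exchanged in the same way. ISL1, a factor of second heart field and sinus node cells, had 77.7 and 7.36 CPM in GFP-positive cells and 9.55 and 4.47 CPM in GFP-negative cells. All 3 were higher with RA in both fractions, and the fraction differences were 3.04 for NR2F2, 3.23 for SHOX2 and 2.29 for ISL1. The ratio of the RA ratios was 8.44 for NR2F2 (7.46 to 9.55), 10.2 for SHOX2 (7.17 to 14.4) and 4.94 for ISL1 (2.94 to 7.90).

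The related COUP-TFI gene, NR2F1, went opposite ways at a smaller size. It had 53.8 and 23.4 CPM in GFP-positive cells and 58.8 and 98.6 CPM in GFP-negative cells, which are RA changes of 1.17 and -0.74. Among 18 listed atrial genes, 16 passed, 7 were 2-fold higher with RA in the GFP-positive fraction and 4 in the GFP-negative, and the median fraction difference was 1.30. The members above it included SLN (1.54), the atrial regulator of the calcium pump, KCNJ3 (1.73), a subunit of the acetylcholine-gated potassium channel, and CACNA1D (1.44), a calcium channel of pacemaker cells. HCN4, the pacemaker channel, was at 530 and 457 CPM in GFP-positive cells and fell short of 2-fold there, but had 31.3 and 67.7 CPM in GFP-negative cells. HAMP, the hepcidin gene, and STARD10, a lipid transfer protein, were the 2 members below 0, with -1.28 and -0.73.

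Several ventricular genes were 2-fold or more lower with RA in GFP-positive cells and less than 2-fold apart in GFP-negative cells. IRX4, a ventricular homeobox factor, had 38.3 and 241 CPM in GFP-positive cells, against 2.10 and 1.49 CPM from 54 and 7 reads in GFP-negative cells. HEY2, a Notch target that keeps ventricular identity, had 8.15 and 66.0 CPM in GFP-positive cells and 24.0 and 34.1 CPM in GFP-negative cells, so that it went from the higher to the lower fraction. HAND1, a factor of the left ventricle, had 3.74 and 18.1 CPM in GFP-positive cells and 13.8 and 10.6 CPM in GFP-negative cells. Their fraction differences were -2.94, -2.39 and -2.35, with RA ratios in GFP-positive cells of 0.159 (0.148 to 0.169), 0.124 (0.107 to 0.142) and 0.207 (0.165 to 0.257).

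Other members of the ventricular list ranged from no signal to ample signal in GFP-negative cells. MYL2, the ventricular regulatory light chain, had 4.00 and 20.2 CPM in GFP-positive cells and no reads in either GFP-negative library, so its fraction difference of -2.09 is the GFP-positive change alone. GJA1, the main gap junction protein of working myocardium and also of fibroblasts, had 48.4 and 39.8 CPM in GFP-positive and 335 and 487 CPM in GFP-negative cells, a fraction difference of 0.81, and HSPB7, a small heat shock protein of muscle, had 0.63. FHL2, a LIM protein of the sarcomere, had 211 and 564 CPM in GFP-positive and 25.4 and 19.2 CPM in GFP-negative cells, a fraction difference of -1.81. MYH7, the slow and ventricular myosin heavy chain, was lower to the same extent in both, at 664 and 2111 CPM in GFP-positive and 16.4 and 51.3 CPM in GFP-negative cells. Its RA ratios were 0.315 (0.309 to 0.320) and 0.319 (0.272 to 0.375). Of 17 listed ventricular genes 15 passed, 8 were 2-fold lower with RA in the GFP-positive fraction and 1 in the GFP-negative, and the median fraction difference was -0.55.

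Sarcomere genes in general leaned the other way. Of 22 listed genes of cardiomyocyte contraction, all passed, 16 had a fraction difference above 0 and the median was 0.74. With RA, 7 of the 22 were 2-fold lower in GFP-negative cells, and 2 in the GFP-positive ones. TNNT2, cardiac troponin T, had 4371 and 4776 CPM in GFP-positive and 126 and 230 CPM in GFP-negative cells, and TNNC1, its calcium-binding partner, 228 and 244 CPM against 20.8 and 54.1 CPM. The summed level of 8 cardiomyocyte markers was 15945 CPM in RA-treated and 17823 CPM in CTR GFP-positive cells, and 438 and 874 CPM in the GFP-negative cells, with none at 0 in any library. How far the cardiomyocyte RNA within the GFP-negative fraction enters these values was not tested.

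**Figure D2:**
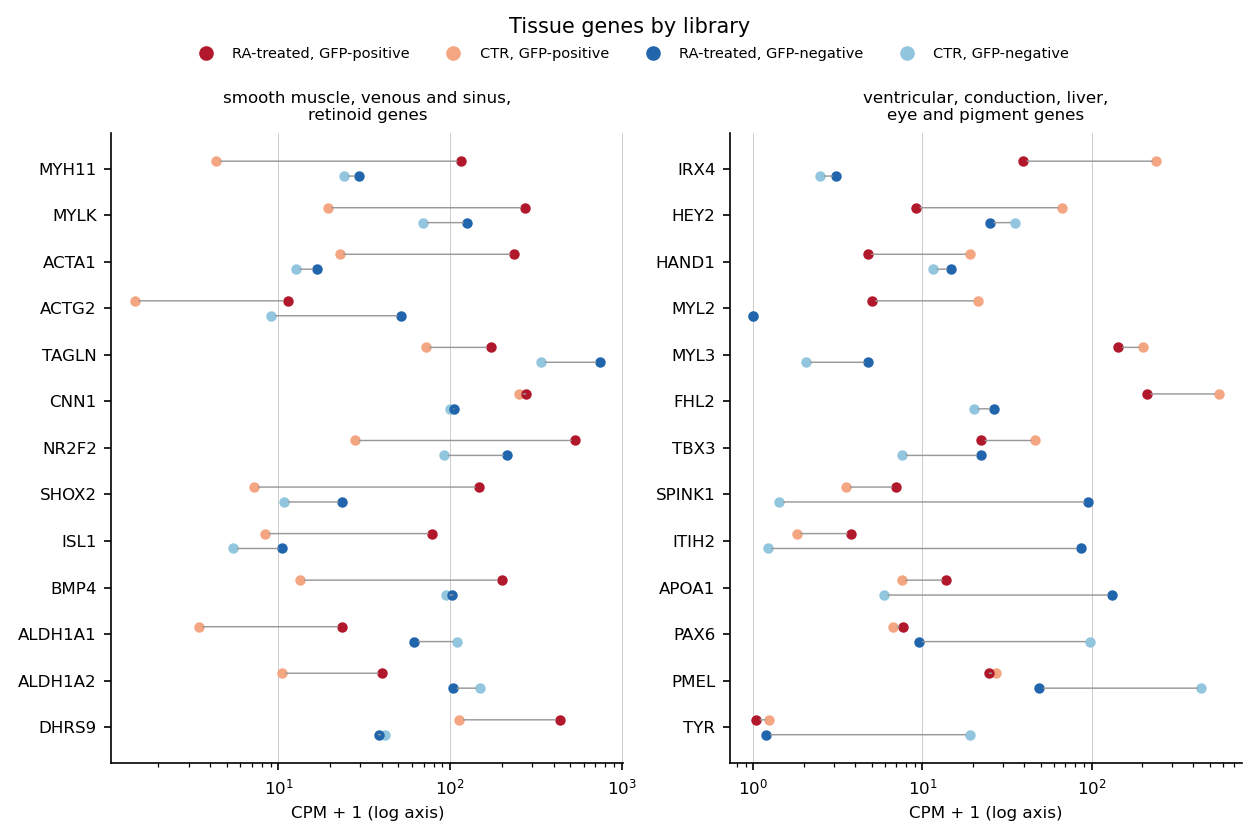
Levels in the 4 libraries of 26 genes of smooth muscle, venous and retinoid function (left) and of ventricular, conduction, liver, eye and pigment function (right), as CPM + 1 on a log axis. Red shades mark GFP-positive and blue shades GFP-negative cells, dark points RA-treated and light points CTR cells, and lines join the 2 libraries of a fraction. MYH11 spanned 3.35 to 115 CPM in GFP-positive cells and 23.2 to 28.4 CPM in GFP-negative cells, whereas for SPINK1 and PAX6 the wide line was that of the GFP-negative cells.

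In 37 genes the RA change was 2-fold or more in each fraction and in opposite directions. RA-treated cells had more in the GFP-positive and less in the GFP-negative fraction for 21 of them (0.170% of the genes compared), and the reverse for 16 (0.130%). Of the gene lists, the first group held TYRP1 of the pigment and neural crest list and CRABP1 of the RA response list, and no member of the other lists.

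TRPM3 had the largest fraction difference of the genes compared (chromosome 9, 73143976 to 74061820). It encodes a cation channel, and a microRNA of the retinal pigment epithelium lies in one of its introns. TRPM3 had 18.8 and 3.14 CPM in GFP-positive cells and 6.62 and 65.8 CPM in GFP-negative cells, RA first. The CTR GFP-negative library stood above the other 3, and with RA the GFP-positive fraction had the higher level. Its RA ratios were 6.0 (4.79 to 7.60) and 0.101 (0.0830 to 0.122), and the fraction difference was 5.39.

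The next highest value of these genes was that of DACH2. DACH2, a cofactor of the dachshund family, had 14.5 and 0.384 CPM in GFP-positive and 1.91 and 5.11 CPM in GFP-negative cells. GABRB2, a subunit of the GABA receptor channel, had 21.2 and 2.09 CPM against 6.43 and 17.0 CPM, and GAD1, the enzyme that makes GABA, 12.7 and 1.88 CPM against 3.08 and 8.73 CPM. NFASC, a cell adhesion protein of axons, had 54.3 and 7.47 CPM against 1.01 and 4.05 CPM. The order of the fractions was exchanged with RA for DACH2, GABRB2 and GAD1, whereas NFASC had its higher level in GFP-positive cells of both cultures. The other members with the same pattern included NELL2, a secreted protein of neurons (RA changes of 1.54 and -2.38), DPYSL5, a protein of the growth cone (1.58 and -1.65), KIF5C, a neuronal kinesin motor (1.19 and -1.70), LRRC4, a synaptic adhesion protein (1.88 and -1.49), and DLGAP1, a scaffold of the postsynapse (2.10 and -1.37). EDN3, a ligand of pigment and enteric crest precursors, had RA changes of 1.26 and -1.13, and TYRP1, an enzyme of melanin synthesis, of 1.15 and -2.22.

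In the reverse direction, ERBB3, the receptor for neuregulins (chromosome 12, 56470583 to 56497289), had 11.1 and 46.3 CPM in GFP-positive and 63.5 and 9.58 CPM in GFP-negative cells. The fractions thus exchanged places, and the RA ratios were 0.241 (0.212 to 0.273) and 6.63 (4.93 to 9.12), for a fraction difference of -4.57. MOXD1, a monooxygenase related to dopamine beta-hydroxylase, had 44.5 and 176 CPM against 68.6 and 10.6 CPM. ICAM5, an adhesion molecule, had 23.1 and 81.0 CPM against 27.7 and 3.41 CPM. HPN, a membrane serine protease of liver, had 20.8 and 43.0 CPM against 74.9 and 9.58 CPM. ROBO2, a receptor for Slit guidance proteins, had 9.05 and 34.7 CPM against 44.7 and 14.3 CPM. For these 4 the fraction with the higher level in CTR cells, GFP-positive, was the lower one with RA.

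TBX3, a T-box repressor that marks the conduction system in the heart, belongs to the same group. It had 21.2 and 45.4 CPM in GFP-positive and 21.1 and 6.60 CPM in GFP-negative cells, RA first, so that the CTR fractions lay apart and the RA-treated ones level. The related TBX2 leaned the same way, with 175 and 218 CPM against 79.6 and 34.9 CPM and a fraction difference of -1.48. TSHZ2, a zinc finger factor, had 25.3 and 54.5 CPM against 17.7 and 5.96 CPM, and TNNT3, the fast skeletal troponin T, 5.46 and 16.5 CPM against 18 and 7.88 CPM. For GPR132 and PRSS45P the CTR GFP-negative library held no reads, and the ratio to 3 reads in that library made them at least 3.84-fold and 1.83-fold higher with RA there. PRSS45P shares 73.2% of its exon bases with other genes and is uncertain.

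**Figure D3:**
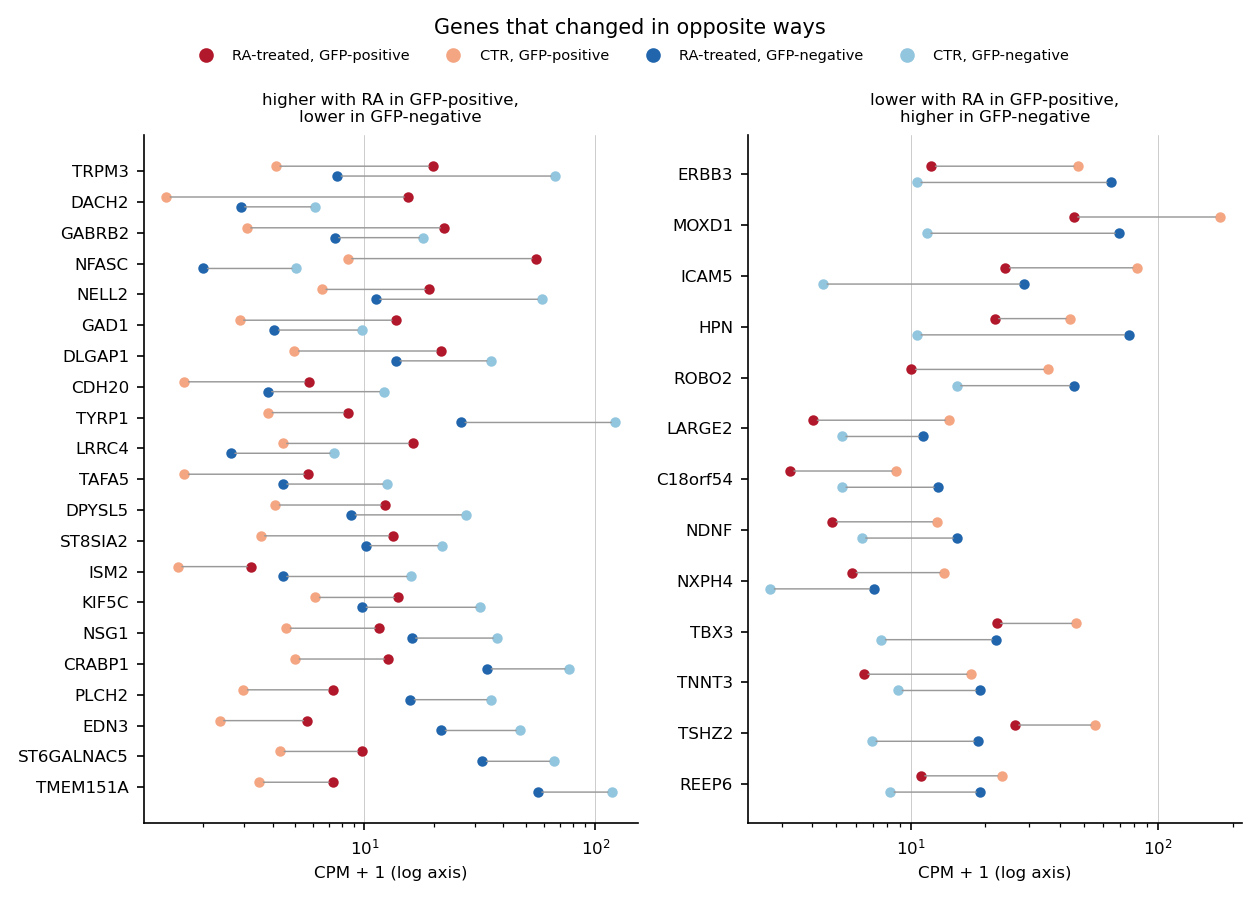
Levels in the 4 libraries of 34 genes that changed 2-fold or more in opposite ways and had reads in CTR GFP-negative cells, as CPM + 1 on a log axis, ordered by the size of the fraction difference, with 21 genes on the left and 13 on the right. Red shades mark GFP-positive and blue shades GFP-negative cells, dark points RA-treated and light points CTR cells. On the left the line of the GFP-positive cells runs up from CTR to RA and that of the GFP-negative cells down, from TRPM3 (5.39) to TMEM151A (2.13), and on the right from ERBB3 (-4.57) to REEP6 (-2.30) the directions are exchanged.

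Some eye, forebrain and pigment genes had large positive fraction differences with lower levels in RA-treated than in CTR GFP-negative cells. PAX6, a master factor of the eye field, had 8.50 and 96.3 CPM in GFP-negative cells, and 6.69 and 5.72 CPM in GFP-positive cells, RA first. Only the CTR GFP-negative library was high, and the fraction difference was 3.55. PMEL, the fibril protein of melanosomes, had 48.2 and 444 CPM in GFP-negative and 23.9 and 26.1 CPM in GFP-positive cells. Its RA ratio was 0.108 (0.101 to 0.116) in the former and 0.918 (0.825 to 1.02) in the latter. TYR, the first enzyme of melanin synthesis, had 5 and 85 reads in GFP-negative cells and 1 and 7 reads in GFP-positive cells, so that its fraction difference of 3.74 rests on the GFP-negative change of -4.00.

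The lists of these tissues held further members that were lower with RA in GFP-negative cells. Of 19 listed eye field and forebrain genes 11 passed, 10 of these were 2-fold lower with RA in GFP-negative and 3 in GFP-positive cells, and the median fraction difference was 1.84. Of these 11, 9 reached 10 CPM in CTR GFP-negative cells alone, so that the filter took them in by their level there and neither count nor median is support for a direction. FEZF2 (3.31), SIX3 (2.62) and OTX2 (2.49), homeobox and zinc finger factors of forebrain and retina, were among the members past 2, and LHX2 alone was below 0 (-1.60). Of 23 neural progenitor genes 13 passed, 8 were 2-fold lower in GFP-negative and 0 in GFP-positive cells, and HES5 (2.91), ZIC1 (2.80) and ZIC5 (2.58) had the highest values after PAX6, but 6 of the 13 reached 10 CPM in CTR GFP-negative cells alone, and the filter bears on this count in the same way. Of 19 pigment and neural crest genes 11 passed, with 6 lower and 3 higher in GFP-negative cells (ERBB3, NGFR and TFAP2A). Of the 11, 3 reached 10 CPM in CTR GFP-negative and 1 in RA-treated GFP-negative cells alone, through which the filter bears on these counts. Of the 11, ERBB3 (-4.57) and TFAP2A (-0.67), a crest factor, lay below 0. Of the 8 left out, TFAP2B (-2.14), FOXD3 (-1.63) and MLANA (-0.69) did so as well. Over all 19, 5 lay below 0 and 14 above. The summed level of 5 pigment markers was 33.0 and 34.9 CPM in GFP-positive and 81.1 and 692 CPM in GFP-negative cells, RA first, and that of 5 neural and eye markers 9.16 and 13.5 CPM against 49.3 and 195 CPM. MLANA was at 0 in the CTR GFP-negative library. The part of these cell types in the fraction differences was not tested.

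Some neuronal genes had more in RA-treated than in CTR GFP-positive cells. STMN2, a microtubule regulator of growing axons, had 42.5 and 1.26 CPM in GFP-positive and 72.7 and 16.8 CPM in GFP-negative cells, higher with RA in both. PHOX2A, a factor of autonomic neurons, had 62.5 and 9.04 CPM against 3.59 and 7.03 CPM, and its ratio of the RA ratios was 13.6 (8.64 to 20.8). GAP43, a growth cone protein, had 2.80 and 0.489 CPM against 9.12 and 18.5 CPM. Of 25 listed neuronal genes 11 passed, 5 were 2-fold higher in GFP-positive cells and 2 lower in GFP-negative cells, and the median fraction difference was 1.89. Of the 11, 3 reached 10 CPM in CTR GFP-negative cells alone and 2 in RA-treated GFP-positive cells alone, which favours positive values, so the median is no support for a direction. SNAP25 (-1.43), a protein of synaptic vesicle release, was among those below 0. The summed level of 4 neuron markers was 51.1 and 8.20 CPM in GFP-positive and 85.3 and 46.9 CPM in GFP-negative cells, none at 0, and its part was not tested.

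Liver and gut genes carried the largest negative values, through higher levels in RA-treated GFP-negative cells, but on few CTR GFP-negative reads. Among genes with 20 or more reads in all 4 libraries, ERBB3 (-4.57) and MOXD1 (-4.54) were lowest. SPINK1, a trypsin inhibitor of pancreas and gut (chromosome 5, 147204135 to 147211234), had 94.7 and 0.426 CPM in GFP-negative cells, from 2431 and 2 reads, and 5.98 and 2.55 CPM in GFP-positive cells. The RA-treated GFP-negative library stood above the other 3, and with only 2 control reads the ratio of 222 there has an interval from 61.5 to 1838. ITIH2, a plasma protein of liver (chromosome 10, 7745279 to 7791483), had 85.1 and 0.213 CPM from 2183 reads and 1 read in GFP-negative cells, and 2.80 and 0.803 CPM in GFP-positive cells. APOA1, the main protein of HDL, had enough reads in each library, with 131 and 4.90 CPM in GFP-negative and 12.8 and 6.53 CPM in GFP-positive cells. Its RA ratios were 26.8 (17.8 to 42.4) and 1.96 (1.63 to 2.35), and the fraction difference was -3.61.

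Epithelial genes of the same tissues followed. CLDN18, a tight junction protein of stomach and lung, had 512 and 6 reads in GFP-negative and 36 and 67 reads in GFP-positive cells. ONECUT2, a homeobox factor of liver and pancreas, had 43.4 and 1.49 CPM against 1.83 and 0.698 CPM, and FOXQ1, a forkhead factor, 27.6 and 1.49 CPM against 0.785 and 1.36 CPM. SLC39A5, a zinc importer of gut and pancreas, had 573 and 0 reads in GFP-negative cells and was at least 35.0-fold higher with RA there. CLDN6, a claudin of embryonic epithelia, had 61.0 and 12.4 CPM against 13.6 and 25.6 CPM. Of 28 gut epithelium genes 14 passed, 13 of which lay below 0, with a median of -1.67, but 5 of the 14 reached 10 CPM in RA-treated GFP-negative cells alone, as did 3 of the 6 liver genes, so that these counts and medians are no support for a direction. Of 25 fetal liver plasma protein genes 6 passed, 4 of which were 2-fold higher in GFP-negative cells, and TTR, the transthyretin that the eye also makes, alone lay above 0 (0.95).

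The filter hides part of this group. Of the 12407 genes with at least 10 CPM in a library, 75 had fewer than 20 reads in both CTR libraries and were left out, and 38 of these had a fraction difference of -2 or less against 1 of 2 or more. CDH17, an intestinal cadherin, had 39 and 9 reads in GFP-positive and 1547 and 2 reads in GFP-negative cells, and APOA4, an apolipoprotein of the gut, 215 and 13 reads against 2947 and 2 reads. SHH and IHH, the hedgehog ligands of gut endoderm, had 630 and 326 reads in RA-treated GFP-negative cells and none in the CTR ones. The summed level of 5 endoderm markers was 37.1 and 10.1 CPM in GFP-positive and 635 and 81.6 CPM in GFP-negative cells, RA first, with FOXA2 at 0 in both CTR libraries and HNF4A at 0 in CTR GFP-positive cells. Most of the CTR GFP-negative sum was TTR, which was lower with RA there, and without TTR the sums of the other 4 were 36.7 and 6.80 CPM in GFP-positive and 623 and 8.52 CPM in GFP-negative cells. Of 20 listed endoderm transcription factor genes, 6 passed with a median of 0.23, whereas all 13 left out lay below 0 and the median over the 19 with counts was -1.79. In RA-treated cells the GFP-positive level was 0.0486 of the GFP-negative level for AFP (0.0447 to 0.0528), 0.0461 for HNF4A (0.0286 to 0.0706) and 0.0520 for FOXA2 (0.0273 to 0.0906). Whether such RNA in the GFP-positive fraction comes from carried-over cells was not tested.

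**Figure D4:**
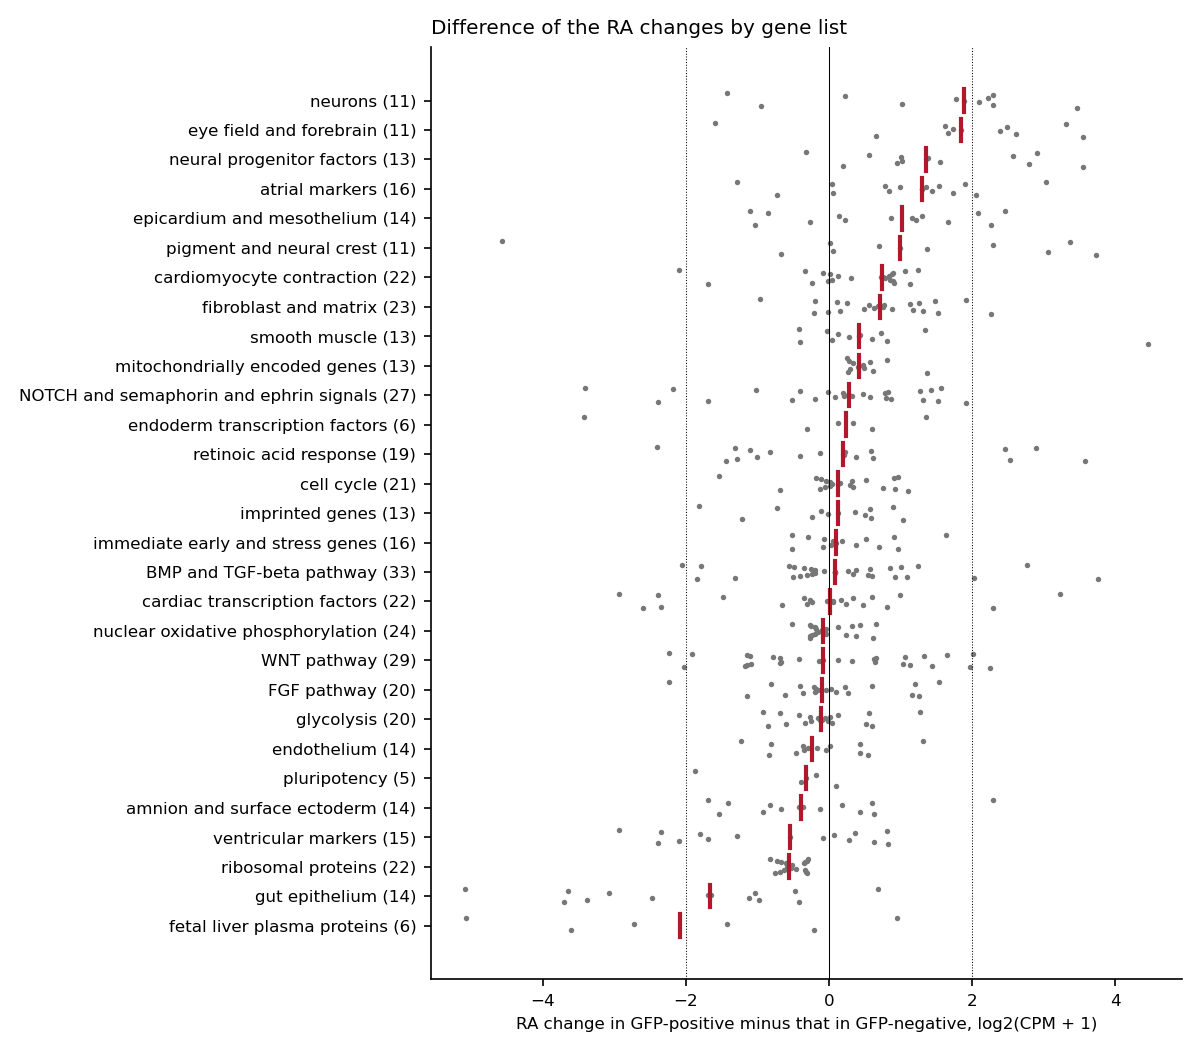
Fraction difference of the genes of 29 lists, with 1 grey point per gene that passed the filter and the list's median as a red bar, numbers of genes in brackets, and dotted lines at -2 and 2. Ribosomal proteins formed a narrow band around -0.56, whereas the WNT, BMP and cardiac factor lists spread to both sides of 0. Many of the medians rest in part on genes that passed the filter through 1 library alone. Among these are the medians of the neuron, eye field, neural progenitor, pigment, liver, gut, amnion, cell cycle and endoderm factor lists.

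The RA pathway itself was split by fraction. Retinaldehyde dehydrogenases, the enzymes that make RA, had the higher RA change in GFP-positive cells. ALDH1A1 had 22.4 and 2.44 CPM in GFP-positive and 60.9 and 108 CPM in GFP-negative cells, RA first, and ALDH1A2, the main enzyme of the early embryo, 39.3 and 9.46 CPM against 103 and 148 CPM. The GFP-negative levels stayed above the GFP-positive ones in both cultures, but the gap was narrower with RA. ALDH1A3 had 0.860 and 0.454 CPM against 4.52 and 30.9 CPM. It passed the filter by its level in CTR GFP-negative cells alone, so its value is no support for a direction. DHRS9, a dehydrogenase that oxidizes retinol, had 433 and 112 CPM against 37.3 and 40.5 CPM, and its RA ratios were 3.87 (3.72 to 4.03) and 0.923 (0.789 to 1.08). CRABP1, a cellular RA-binding protein, had 11.7 and 4.01 CPM against 33.0 and 76.0 CPM, but 45.9% of its exon bases are shared with other genes and its counts are uncertain.

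Several receptor and response genes had the higher RA change in GFP-negative cells, but the receptor RARA (0.22) and the response gene NRIP1 (0.59) did not. DHRS3, which turns retinaldehyde back to retinol, had 17.2 and 1.70 CPM in GFP-negative cells, from 441 and 8 reads, and 6.02 and 4.50 CPM in GFP-positive cells. It reached 10 CPM in RA-treated GFP-negative cells alone, so its value is no support for a direction. RARB, an RA receptor that is itself a classical RA target, had 10.9 and 1.92 CPM in GFP-negative and 21.2 and 13.7 CPM in GFP-positive cells. RARG, another receptor, had 42.2 and 15.1 CPM against 23.4 and 21.2 CPM, and HOXB2, a hindbrain HOX gene, 38.3 and 17.5 CPM against 44.4 and 51.8 CPM. Their ratios of the RA ratios, GFP-negative over GFP-positive, were 7.54 (3.64 to 18.2), 3.69 (1.89 to 8.25), 2.52 (1.93 to 3.33) and 2.56 (2.01 to 3.28). Of 33 listed RA response genes 19 passed, 6 in each fraction were 2-fold higher with RA, and the median fraction difference was 0.20. This sign rests on the filter. Of the 14 members left out, 11 lay below 0, and over all 33 the median was -0.55 with 20 below 0. Among those left out, HOXA3, a HOX gene of hindbrain and pharyngeal arches, had 107 and 4 reads in GFP-positive and 919 and 0 reads in GFP-negative cells, and CDX2, a caudal factor of the hindgut, 8 and 0 reads against 445 and 7 reads, with fraction differences of -3.07 and -2.50. CRABP2 (0.38) and HOXB4 (0.20) were higher with RA in both fractions. These cells were sorted weeks after the RA had been withdrawn, by the days in the labels.

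The RARB promoter is shown because it holds the element through which RA receptors act on it, a direct repeat of hexamer half-sites 5 bases apart, known as DR5. The sequence is the 250 bases before the RefSeq start on GRCh38.p14, chr3:25428013-25428262 on the plus strand, with the DR5 in capitals.
RARB: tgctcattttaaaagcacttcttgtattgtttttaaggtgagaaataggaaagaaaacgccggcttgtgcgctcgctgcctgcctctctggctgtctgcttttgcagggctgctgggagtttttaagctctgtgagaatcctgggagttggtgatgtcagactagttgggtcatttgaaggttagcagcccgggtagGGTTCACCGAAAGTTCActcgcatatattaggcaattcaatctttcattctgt
It begins 53 bases before the start. A DR5 of this kind was found on either strand in 0.0696% of 27305 RefSeq promoters of this length, and in 0 of the 106 and 0 of the 76 promoters matched to the genes past 2 and -2. That these letters were not found in 250 bases says nothing of sites elsewhere.

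Secreted signals and their receptors were divided between the fractions. Among BMP pathway genes, BMP4, a ligand of heart and amnion development, had 198 and 12.4 CPM in GFP-positive and 102 and 93.3 CPM in GFP-negative cells, RA first. Only the CTR GFP-positive library was low, and the RA ratios were 16 (14.3 to 17.8) and 1.10 (0.992 to 1.22). CHRDL1, a BMP antagonist, had 163 and 4 reads in GFP-positive and 253 and 51 reads in GFP-negative cells, and BMP7, a further ligand, 235 and 99.4 CPM against 18.1 and 32.2 CPM. The receptors TGFBR2 (-1.85) and TGFBR3 (-1.79) lay on the other side. Of 37 listed BMP and TGF-beta genes 33 passed, with 3 past 2, 1 past -2 and a median of 0.08, which turned to -0.05 with a pseudocount of 5 CPM.

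WNT genes showed the same division without a common direction. The receptor FZD7 had 145 and 32.3 CPM in GFP-positive and 92.4 and 100 CPM in GFP-negative cells, and SFRP5, a secreted WNT antagonist of the sinus venosus, 145 and 32.6 CPM against 62.0 and 57.3 CPM. RSPO3, an enhancer of WNT signals, had 32.7 and 113 CPM against 43.7 and 31.1 CPM, and FRZB, a further antagonist, 18.3 and 22.0 CPM against 73.7 and 20.7 CPM. The fraction differences were 2.25, 2.01, -2.24 and -2.03, and those of the ligand WNT4 and the receptor FZD1 were 1.97 and -1.91. Of 38 WNT genes 29 passed, 14 above and 15 below 0, with a median of -0.09 that was 0.02 over all 38. Among FGF genes, 20 of 26 passed. FGFR4, a receptor of liver and endoderm, stood out with 59.2 and 7.88 CPM in GFP-negative and 4.08 and 2.51 CPM in GFP-positive cells. The list had a median of -0.10. Of its targets and feedback genes, DUSP6 (1.54), SPRY4 (1.26) and ETV5 (1.16) were 2-fold higher with RA in GFP-positive cells alone, but SPRED2 (0.60), IL17RD (0.27), SPRY1 (0.22), ETV1 (0.10), SPRY2 (-0.16) and SPRED1 (-0.36) were not. Of 30 NOTCH, semaphorin, ephrin and related guidance genes 27 passed, with EPHA3 (-2.18) and EPHA7 (-1.69), ephrin receptors, and NTN1 (1.92), the netrin ligand, among the furthest apart after ROBO2 and HEY2.

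Matrix genes were 2-fold higher with RA more often among GFP-positive than among GFP-negative cells. Of 24 listed fibroblast and matrix genes 23 passed, 18 were 2-fold higher with RA in the GFP-positive fraction and 8 in the GFP-negative, and the median fraction difference was 0.72. FBN1, the fibrillin of microfibrils, had 236 and 36.1 CPM in GFP-positive and 1021 and 598 CPM in GFP-negative cells, and PDGFRB, the receptor of mural cells and fibroblasts, 124 and 23.3 CPM against 472 and 257 CPM. TCF21, a factor of epicardium and fibroblasts, was the only member past 2 (2.27), with 7.78 and 1.47 CPM against 17.0 and 23.4 CPM. The summed level of 6 fibroblast markers was 13308 and 3544 CPM in GFP-positive and 49055 and 25675 CPM in GFP-negative cells, with none at 0, and the part of fibroblasts in the GFP-positive fraction was not tested. Among the genes of highest mean CPM past a threshold, SPOCK1, a matrix proteoglycan, had 475 and 30.8 CPM against 56.9 and 49.4 CPM, SULF2, which trims heparan sulfate, 69.1 and 16.2 CPM against 296 and 335 CPM, and FMOD, fibromodulin, 175 and 36.2 CPM against 225 and 207 CPM. TMSB4X, which sequesters actin monomers, had 352 and 79.3 CPM against 1328 and 1210 CPM. KCTD12, a GABA receptor auxiliary, was the only one of the 10 of highest mean CPM on the negative side, at -2.10.

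All 22 ribosomal protein genes had a negative fraction difference and all 13 mitochondrially encoded genes a positive one, with medians of -0.56 and 0.42, and no alternative scaling or pseudocount turned any of them. None of either list reached -2 or 2. Mitochondrial genes took 14.9% and 14.1% of the reads in GFP-positive and 5.56% and 7.48% in GFP-negative cells, RA first. Cell cycle genes had a median of 0.13, 24 nuclear genes of oxidative phosphorylation -0.09 and 20 glycolysis genes -0.11, of which the first turned to -0.04 with a pseudocount of 5 CPM and the second to 0.00 with library sizes that leave out mitochondrial and the 10 most abundant genes. Of the 21 cell cycle genes that passed, 4 reached 10 CPM in RA-treated GFP-negative cells alone. Of 14 endothelial genes that passed, 5 were above 0 and the median was -0.23, and 16 immediate early and stress genes had a median of 0.10. Epicardial and mesothelial genes had a median of 1.01 over 14 of 15, with 3 past 2, ALDH1A2 and TCF21 among them, and 4 below 0. Amnion and surface ectoderm genes had a median of -0.39 over 14 of 18, imprinted genes 0.12 over 13 of 19, and pluripotency genes -0.32 over 5 of 12. Of the 14 amnion and surface ectoderm genes, 4 reached 10 CPM in RA-treated GFP-negative cells alone and 1 in RA-treated GFP-positive cells alone. Of the 7 pluripotency genes left out by the filter, 6 lay below 0, and over all 12 the median was -0.94. Cardiac transcription factors had a median of 0.01 over 22, which turned to -0.03 with a pseudocount of 5 CPM, where SHOX2 and ISL1 lay at one end and IRX4, TBX3, HEY2 and HAND1 at the other. Over all genes compared, a fraction difference of 1 or more was found in 6.16% and of -1 or less in 4.54%, and in 9 of 16 atrial and 7 of 15 ventricular genes that passed, respectively.

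Some genes changed in the same direction in both fractions. OGN, a small matrix proteoglycan, had 25.9 and 2.09 CPM in GFP-positive and 292 and 32.4 CPM in GFP-negative cells, and FOXP2, a forkhead factor, 29.3 and 2.51 CPM against 32.2 and 3.19 CPM. Their fraction differences were -0.01 and 0.12. HGF, a growth factor of mesenchyme, was higher in both but by unequal amounts, with a fraction difference of 1.01. TBX20, a T-box factor of the early heart, was lower in both, with 90.4 and 291 CPM against 4.21 and 13.2 CPM, and CRYAA, a lens crystallin, had 0.935 and 6.11 CPM against 20.2 and 180 CPM, a fraction difference of 1.22, with 62.5% of its exon bases shared with other genes.

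A few pairs of genes past the same threshold lay within 100 kb of each other. On chromosome 1, NFASC and CNTN2 lie 20115 bases apart with fraction differences of 4.03 and 3.86, and PLCH2 and HES5 23213 bases apart with 2.44 and 2.91. On chromosome 2, LINC01833 and SIX3 lie 2503 bases apart with 2.58 and 2.62. PRDM16 and PRDM16-DT start 77 bases apart, with -2.04 and -2.03, and were the 1 such pair among the negative genes. Reads were counted without strand, so reads wholly within exon bases shared by a gene and its antisense partner went to neither.

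**Figure D5:**
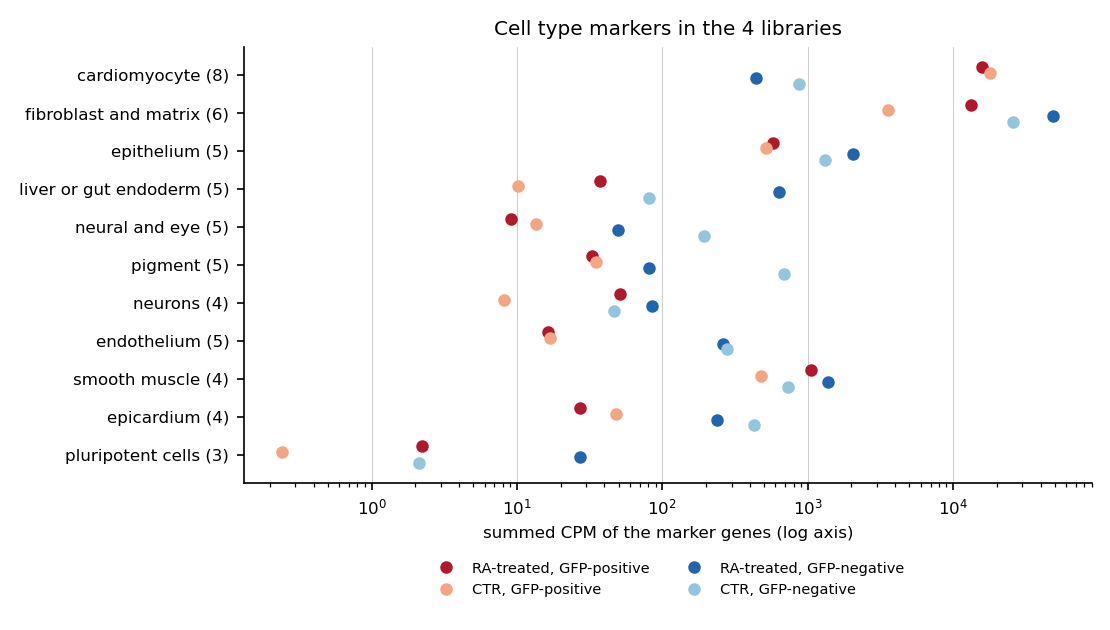
Summed CPM on a log axis of the markers of 11 cell types in the 4 libraries, numbers of genes in brackets, with red shades for GFP-positive and blue shades for GFP-negative cells, dark for RA-treated and light for CTR. Cardiomyocyte markers were at 15945 and 17823 CPM in GFP-positive and 438 and 874 CPM in GFP-negative cells, endoderm markers were highest in RA-treated GFP-negative cells (635 CPM) and pigment markers in CTR GFP-negative cells (692 CPM).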

How the data were processed

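RNA of 4 sorted cell populations, 1 library each, was sequenced as paired reads of 75 bases. The authors trimmed reads, mapped these by GSNAP onto hg19 as customised by them, used SAMtools 0.1.18, and with HTSeq-count 0.6.1p1 assigned uniquely mapped reads to Ensembl genes regardless of strand. The deposited values are these raw counts, with no normalization. The Ensembl release is not given in the sources used here.

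For CPM, library sizes were multiplied by TMM factors from all 4 libraries (0.951, 1.00, 0.979 and 1.07, in the order of the report) from edgeR 4.0.16 in R 4.3.3, and compared as log2(CPM + 1), which understates the change of low genes. Genes with 10 CPM or more in 1 or more libraries and 20 reads or more in either CTR library were kept. Ratios within a fraction have Clopper-Pearson intervals at the 95% level, and ratios of ratios combine these by the method of variance estimates recovery; counting error is all that these intervals and the 3-read floor take in. No test was made, each condition having 1 library.

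Symbols were matched by Ensembl identifier (12088 of 12332 genes), and gene coordinates are those of GENCODE lifted to GRCh37. Promoters are RefSeq sequences of GRCh38.p14, a different build from that of the counts.

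Named genes were the 15 highest and 15 lowest fraction differences with and without a minimum of 20 reads in all 4 libraries, up to 15 opposite changes each way, the 10 of highest mean CPM past a threshold, 3 just inside and outside each threshold, the 10 highest and 10 lowest in both fractions, and members of 29 lists. TBX2, the left-out genes, and the motif-bearing and neighbouring genes were named after their values were seen. Some members are not reported here. The members and lists were chosen with earlier results of these data known.

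Alternatives were 5 scalings (DESeq2 1.42.0 size factors among them), 2 pseudocounts, a prior count, 4 filters and other thresholds. The procedure was tested on simulated data. Figures were drawn with matplotlib 3.10.9.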

Additional observations from a re-analysis of the deposited data

Results flagged for a closer look

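The 37 genes whose RA change was 2-fold or more in both fractions and ran in opposite ways were flagged because the single library pair of each fraction moved in the opposite direction to the other. This difference was not tested, there being 1 library per condition, and no group held enough libraries for a search for outlying samples.

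Among the 21 genes higher with RA in GFP-positive and lower in GFP-negative cells, the fraction difference was 5.39 for TRPM3, 4.56 for DACH2, 4.12 for GABRB2, 4.03 for NFASC, 3.92 for NELL2 and 3.50 for GAD1. It was 3.47 for DLGAP1, 3.46 for CDH20, 3.37 for TYRP1, 3.36 for LRRC4, 3.28 for TAFA5, 3.23 for DPYSL5 and 3.00 for ST8SIA2. It was 2.90 for ISM2, 2.89 for KIF5C, 2.58 for NSG1, 2.53 for CRABP1, 2.44 for PLCH2, 2.40 for EDN3, 2.20 for ST6GALNAC5 and 2.13 for TMEM151A.

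Among the genes lower with RA in GFP-positive and higher in GFP-negative cells, it was -4.57 for ERBB3, -4.54 for MOXD1, -4.47 for ICAM5, -3.86 for HPN, -3.41 for ROBO2 and -3.03 for GPR132. It was -2.92 for LARGE2, -2.72 for C18orf54, -2.68 for NDNF, -2.63 for NXPH4, -2.61 for PRSS45P, -2.60 for TBX3, -2.53 for TNNT3, -2.51 for TSHZ2 and -2.30 for REEP6.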

How the results depend on the processing

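All 37 opposite genes kept both directions, and all 255 genes past a fraction difference of 2 kept its sign, under 5 other scalings, pseudocounts of 0.25 and 5 CPM and a prior count of 2 reads. Genes picked for values of this size could hardly turn. A pseudocount leaves the direction of a change as it is, and the scalings moved all genes by little. Neither count is support for a direction. Of 216 named or listed genes with a fraction difference of 1 or more, 214 kept its sign; with the prior count, SIX6 turned to -0.42 and SOX3 to -0.78. Library size alone, and leaving out mitochondrial and the 10 most abundant genes, moved the median RA change of all genes in GFP-negative cells from 0.07 to -0.06.

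Counts depended on how low values were treated. The 150 genes with the higher RA change in GFP-positive cells became 62 with a pseudocount of 5 CPM, 251 without a filter on low values, 56 with 50 CPM or more, and 760 and 34 at thresholds of 1 and 3. The 105 genes with the higher RA change in GFP-negative cells became 37 with a pseudocount of 5 CPM, 161 with the prior count, 306 without a filter, 27 with 50 CPM or more, 47 with 20 reads or more in both CTR libraries or in all 4 libraries, and 560 and 24 at thresholds of 1 and 3. The 21 genes higher in GFP-positive and lower in GFP-negative cells became 32 leaving out mitochondrial and the 10 most abundant genes, 33 and 4 with pseudocounts of 0.25 and 5 CPM, 38 with the prior count, 37 without a filter, 7 with 50 CPM or more, and 107 and 1 at 1.5-fold and 4-fold. The 16 reverse genes became 4 with a pseudocount of 5 CPM, 5 with 50 CPM or more, and 86 and 0 at 1.5-fold and 4-fold.

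No paired analysis was possible because each condition has 1 library, and there was no replicate to leave out.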
